A study of Mus musculus with 2 samples.

Results

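Testis paralogues of housekeeping genes are copies of widely used genes that are transcribed mainly in male germ cells. Here 9 of them, out of 25740 genes with a value, were followed in mouse E14.1 embryonic stem cells: the tubulins Tuba3a and Tuba3b, the transcription factor subunit Taf7l, the ATP/ADP carrier Slc25a31, the ribosomal protein Rpl10l, the metabolic enzymes Ldhc, Pgk2 and Pdha2, and the bromodomain protein Brdt. They were chosen by function with the RPKM of these same 2 libraries already known, so their values are a description and carry no test. One library came from cells carrying T136A AHCY, in which a threonine of the enzyme is replaced by alanine, and the other from cells carrying wild-type (WT) AHCY. AHCY breaks down S-adenosylhomocysteine, the product of every methyl transfer from S-adenosylmethionine. With 1 library per genotype, "higher" and "lower" refer to these libraries and have no replicate check. How the T136A line was made, and whether it is 1 clone, is not given in the sources used here.

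Spermatogenic cells switch from many common genes to a second copy. Several of the common genes, among them Rpl10, Pgk1, Pdha1 and Slc25a5, lie on the X chromosome, which is silenced during male meiosis, and their testis copies lie on autosomes. In embryonic stem cells and in somatic tissues many germline promoters are held silent by promoter DNA methylation and by a Polycomb complex that contains E2F6 and the partners MGA and MAX.

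The unit was RPKM, read numbers scaled to exon length and to the library's total. Whole reads recovered from these values gave totals of 18396838 reads for T136A and 17506151 for WT, and every 95% interval below is a counting interval of the fold between the 2 libraries. Cells of both libraries carried the defining transcripts of embryonic stem cells: all 8 markers on that list reached 94.2 RPKM or more in each library. The 5 spermatid markers found summed to 0.136 RPKM in T136A and 0.156 RPKM in WT, and the protamine Prm2 and the sperm tail protein Odf1 were at 0 in both. The 8 Sertoli and Leydig cell markers summed to 16.9 RPKM in T136A and 54.0 RPKM in WT, most of it Dmrt1. The 5 feeder fibroblast markers found summed to 38.8 RPKM in T136A and 96.4 RPKM in WT, most of it Fn1; the other 4 summed to 5.91 RPKM in T136A and 3.01 RPKM in WT. The part of these marker levels in the results below was not tested. Bulk values cannot tell more cells with a transcript from more transcript per cell.

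Of the 9 testis paralogues, 5 were higher in T136A and 0 lower. A gene was counted as higher or lower when log2 of (T136A RPKM + 1) over (WT RPKM + 1) was 1 or more, or -1 or less, which is a 2-fold difference with the constant included, and it reached 1 RPKM in at least 1 library. Those 5 were Tuba3a, Tuba3b, Slc25a31, Rpl10l and Ldhc. Taf7l reached 1 RPKM and stayed between the limits, while Pgk2, Pdha2 and Brdt stayed under 1 RPKM in both libraries. Over all 12320 genes that reached 1 RPKM, 386 (3.13%) were higher and 382 (3.1%) lower, and with upper-quartile scaling 562 were higher and 261 lower, so the members' count stands beside that background as a description only. The median log2 ratio was 1.03 over all 9 members and 1.19 over the 6 that reached 1 RPKM, against -0.03 over all 12320 genes. Of those 6, Tuba3b and Ldhc reached that level through T136A alone.

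**Figure D1:**
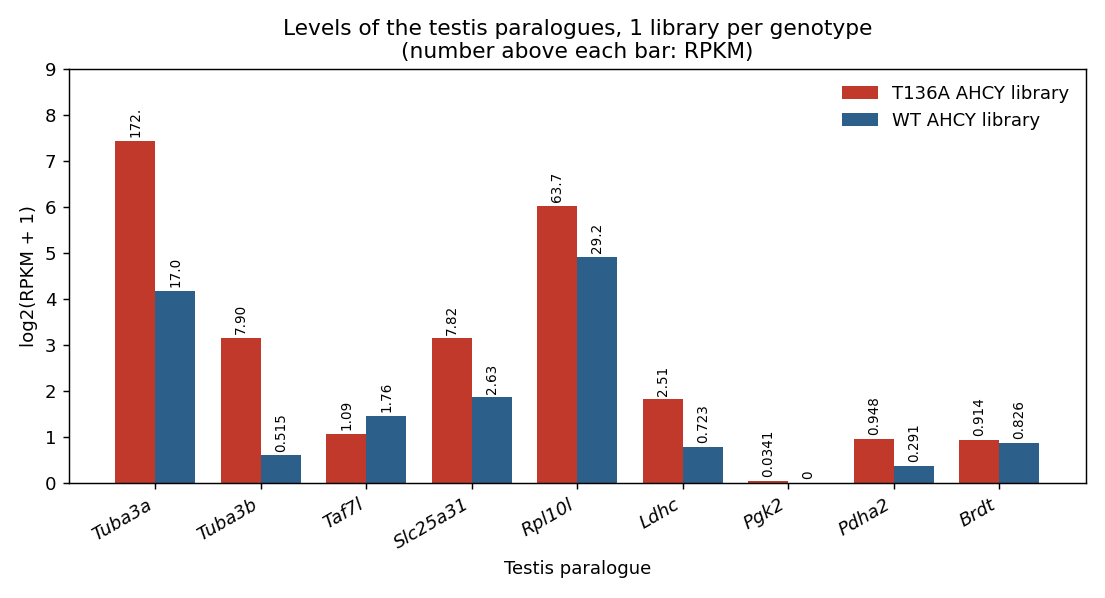
Level of each testis paralogue as log2(RPKM + 1) in the T136A library and the WT library, with the RPKM above each bar and no error bars because each genotype had 1 library. Tuba3a (172 RPKM in T136A, 17.0 RPKM in WT) and Rpl10l (63.7 RPKM in T136A, 29.2 RPKM in WT) are the highest in each library, Pgk2 is near 0 in both, and Taf7l alone has the taller bar in WT.

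The start sites of the copies were compared in RefSeq promoter sequences, which matched all 9 members; Ldhc has a pair of start sites there. Each window runs 250 bases before and 50 after the start site. The E2F core TCCCGC, searched on both strands, was found in the windows of 4 of the 5 higher members (Tuba3a, Tuba3b, Slc25a31 and Rpl10l). It was found in 0 of the other 4, of which Pgk2, Pdha2 and Brdt stayed under 1 RPKM and could not be called. Of all 32851 RefSeq windows 20% held it, and of 27025 genes, counted over all their windows, 22%. The split of the members is a description, since they were chosen with these values known. The matches of Tuba3a and Tuba3b lie in a shared run. The core holds a CpG dinucleotide, and these 4 windows had 12 to 22 CpG against a median of 7 over all windows. Neither the 20% nor the 22% is thus a background matched for CpG. The E-box CACGTG, a palindrome that MGA and MAX can bind, was found in 3 members, Slc25a31, Taf7l and Brdt. It was in 7.15% of all windows and 8.09% of genes. No motif overlapped another. Below, 180 bases around the start site are printed for each member with a match, 150 before and 30 after it, 5' to 3' on the strand of the gene (RefSeq, GRCm38.p6), because they show where the matches sit in each promoter. Capitals mark the 2 motifs.
Tuba3a (chr6:125286052-125286231, minus strand): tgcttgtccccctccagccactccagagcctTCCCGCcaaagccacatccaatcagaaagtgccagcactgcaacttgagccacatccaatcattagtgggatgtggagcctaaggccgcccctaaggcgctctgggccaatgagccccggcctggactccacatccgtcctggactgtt
Tuba3b (chr6:145615813-145615992, plus strand): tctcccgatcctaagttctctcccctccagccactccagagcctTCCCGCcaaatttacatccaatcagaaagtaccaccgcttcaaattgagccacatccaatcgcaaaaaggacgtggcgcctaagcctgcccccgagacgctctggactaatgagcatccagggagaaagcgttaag
Slc25a31 (chr3:40708721-40708900, plus strand): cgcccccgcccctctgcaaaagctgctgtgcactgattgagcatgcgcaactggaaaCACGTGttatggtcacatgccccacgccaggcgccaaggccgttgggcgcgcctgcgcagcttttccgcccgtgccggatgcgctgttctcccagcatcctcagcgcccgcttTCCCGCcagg
Rpl10l (chr12:66284372-66284551, minus strand): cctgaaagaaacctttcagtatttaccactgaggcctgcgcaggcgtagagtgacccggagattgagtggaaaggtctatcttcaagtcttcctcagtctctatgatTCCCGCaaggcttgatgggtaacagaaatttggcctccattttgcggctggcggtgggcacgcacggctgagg
Taf7l (chrX:134476461-134476640, minus strand): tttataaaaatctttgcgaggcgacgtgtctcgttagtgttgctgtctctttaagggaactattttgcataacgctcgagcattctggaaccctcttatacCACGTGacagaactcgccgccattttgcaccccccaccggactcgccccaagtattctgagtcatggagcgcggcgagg
Brdt (chr5:107331044-107331223, plus strand): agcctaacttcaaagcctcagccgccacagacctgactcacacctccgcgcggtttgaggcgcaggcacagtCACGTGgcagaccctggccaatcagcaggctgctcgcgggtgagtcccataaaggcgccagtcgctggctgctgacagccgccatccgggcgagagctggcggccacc
The stretches of Tuba3a and Tuba3b share an unbroken run of 33 bases that holds the motif. The motif begins 119 bases before the RefSeq start of Tuba3a and 106 bases before that of Tuba3b. The GENCODE start of Tuba3b, 145615757, lies before its printed stretch, so by GENCODE the Tuba3b motif falls inside the gene. In Slc25a31 the E2F core begins 21 bases into the transcript and the E-box 93 bases before the start. In Rpl10l the match begins 43 bases before the start. The longer form TTCCCGCC, chosen after these matches were seen, is present in Tuba3a, Tuba3b and Slc25a31. It is in 2.19% of all windows and 2.52% of genes. Among the other testis copies described below, the E2F core was present in the windows of Cyct and Cox7b2 and not in those of Rpl39l or Cox6b2, and Cox8c was not searched. Rpl39l and Ldhc were thus higher without a match. Pdha2, under 1 RPKM in both libraries with a plain fold of 3.25 (1.68 to 6.80), had none either. A match is a run of letters and not a shown binding site.

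**Figure D2:**
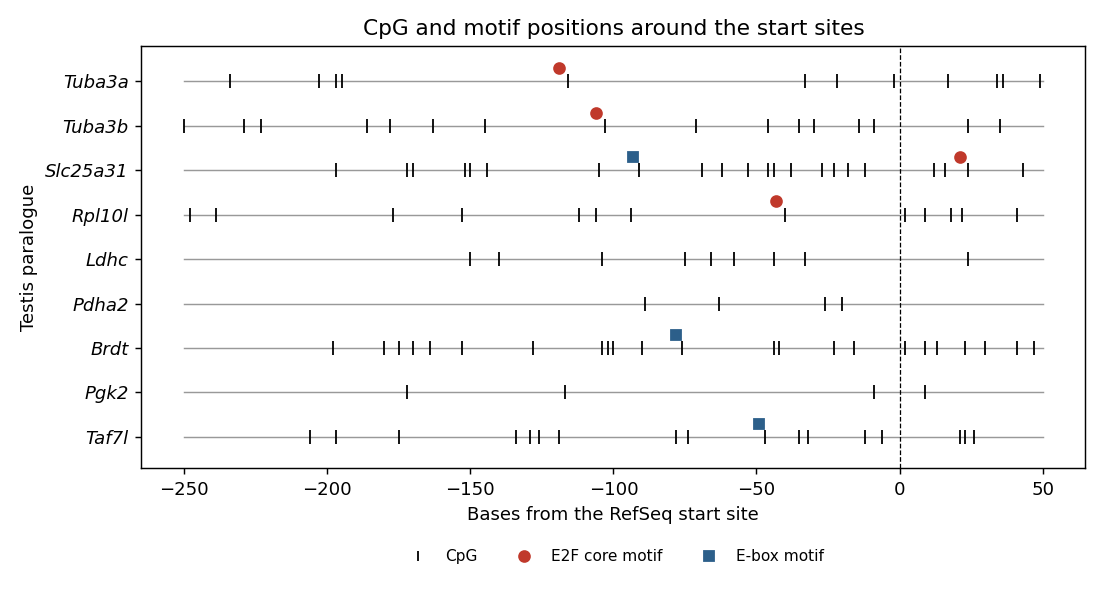
Positions of CpG dinucleotides (ticks), of the E2F core motif (circles) and of the E-box motif (squares) from 250 bases before to 50 after the RefSeq start site (dashed line), for the first start site of each member, ordered from the highest to the lowest log2 ratio of T136A over WT. The circles fall in the top 4 rows, and Brdt (23 CpG) and Slc25a31 (22) have the most CpG, Pdha2 and Pgk2 (4 each) the fewest.

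The windows also differed in CpG dinucleotides, the sites of DNA methylation. The median RefSeq window had 7. Brdt had 23, Slc25a31 had 22, Taf7l had 17, Tuba3b had 16, Rpl10l had 13 and Tuba3a had 12. Ldhc had 9 and 3 at its start sites, and Pgk2 and Pdha2 had 4 each. Of the members with 12 CpG or more, Tuba3a, Tuba3b, Slc25a31 and Rpl10l were higher, and Taf7l lay between the limits. Brdt stayed under 1 RPKM and so could not be called. DNA methylation was not measured, and the part of CpG number in these values was not tested.

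The testis alpha-tubulins were furthest apart between the libraries. Tubulin alpha subunits pair with beta subunits to build microtubules, and Tuba3a and Tuba3b are the forms of the testis. Tuba3a (ENSMUSG00000067702; GRCm38 chromosome 6, 125278274 to 125286042, minus strand) was at 172 RPKM in T136A (4770 reads) and 17.0 RPKM in WT (449 reads), a fold of 10.1 (9.18 to 11.2). Its log2 ratio of 3.26 ranked number 5 from the top among the 12320 genes. Tuba3b (ENSMUSG00000067338; chromosome 6, 145615757 to 145621479, plus strand) was at 7.90 RPKM in T136A (258 reads) and 0.515 RPKM in WT (16 reads), a fold of 15.3 (9.27 to 27.3). It passed the 1 RPKM minimum through T136A alone and ranked number 13.

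The 2 genes cannot be fully separated. Their coding sequences of 1353 bases are identical at 97.0% of positions, and 32.4% of the 50-base windows of the Tuba3a transcript occur unchanged in Tuba3b. How reads that match several places were counted is not given in the sources used here. Summed over both, the reads were 5028 in T136A and 465 in WT, a fold of 10.3 (9.35 to 11.3).

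Their widely expressed counterparts moved far less. Tuba1b, the main alpha-tubulin here, was at 998 RPKM in T136A and 826 RPKM in WT. Tuba1c was at 393 RPKM in T136A and 262 RPKM in WT. Tuba1a, a form abundant in neurons, was at 128 RPKM in T136A and 156 RPKM in WT. The testis pair made up 10.6% of the summed RPKM of these 5 alpha-tubulin genes in T136A and 1.39% in WT. In T136A, Tuba3a thus stood above Tuba1a, whereas in WT it stood below each of the 3 counterparts.

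Slc25a31 encodes the germ cell carrier that exchanges ADP for ATP across the inner mitochondrial membrane (ENSMUSG00000069041; chromosome 3, 40708855 to 40726096, plus strand). It was at 7.82 RPKM in T136A (306 reads) and 2.63 RPKM in WT (98 reads), a fold of 2.97 (2.36 to 3.77). The common carriers were also above their WT level, though within the 2-fold limits: Slc25a5 was at 395 RPKM in T136A and 228 RPKM in WT, a fold of 1.73 (1.68 to 1.79). Slc25a4, the carrier of heart and muscle, was at 110 RPKM in T136A and 62.2 RPKM in WT, a fold of 1.77 (1.68 to 1.85). The share of Slc25a31 in the carrier family was small in both libraries, 1.53% in T136A and 0.899% in WT.

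Ldhc, the lactate dehydrogenase of sperm, was at 2.51 RPKM in T136A (73 reads) and 0.723 RPKM in WT (20 reads), a fold of 3.47 (2.09 to 6.02) (ENSMUSG00000030851; chromosome 7, 46861203 to 46878142, plus strand). It passed the minimum through T136A alone and lay just past the 2-fold limit, with a log2 ratio of 1.03. Lactate dehydrogenase converts pyruvate and lactate, and its common subunits went opposite ways. Ldha, the subunit of glycolytic tissues and a neighbour of Ldhc on chromosome 7, was at 441 RPKM in T136A and 161 RPKM in WT, a fold of 2.74 (2.68 to 2.81). Ldhb, the subunit of oxidative tissues, was at 150 RPKM in T136A and 386 RPKM in WT, 2.57-fold lower (2.48 to 2.67). The sum of Ldha and Ldhb was 591 RPKM in T136A and 547 RPKM in WT, so the ratio of Ldha to Ldhb differed, 2.94 in T136A and 0.416 in WT, with little difference in their total. Ldhc was 0.423% of the family's summed RPKM in T136A and 0.132% in WT.

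Pdha2 and Pgk2, single-exon copies of X-linked genes, stayed under 1 RPKM in both libraries. Pdha2, the testis alpha subunit of pyruvate dehydrogenase, which turns pyruvate into acetyl-CoA (ENSMUSG00000047674; chromosome 3, 141210004 to 141212355, minus strand), was at 0.948 RPKM in T136A (41 reads) and 0.291 RPKM in WT (12 reads). The plain fold was 3.25 (1.68 to 6.80), but its log2 ratio with 1 RPKM added was 0.59, under the limit with or without the minimum level. Counted instead by plain ratios of at least 2-fold on 10 or more reads, Pdha2 joined the 5 higher members. They made 6 of the 8 members with recovered reads in both libraries, beside 9.55% of genes higher and 8.83% lower by that rule. Pdha1, the counterpart of Pdha2, was at 28.4 RPKM in T136A and 27.3 RPKM in WT. Pgk2, the sperm phosphoglycerate kinase of glycolysis (ENSMUSG00000031233; chromosome 17, 40207015 to 40208640, minus strand), was at 0.0341 RPKM in T136A, about the worth of a single read (0.0334 RPKM), and at 0 in WT. A count of 0 allows up to 3 reads, so no fold is given for it. Pgk1 was at 323 RPKM in T136A and 285 RPKM in WT.

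Rpl10l, the testis copy of a protein of the large ribosomal subunit, was second in level among the members (ENSMUSG00000060499; chromosome 12, 66283379 to 66284401, minus strand). It was at 63.7 RPKM in T136A (1198 reads) and 29.2 RPKM in WT (523 reads), a fold of 2.18 (1.97 to 2.42). In WT it was the highest of the 9, and in T136A only Tuba3a was higher. The copy has 1 exon and a coding sequence 84.8% identical to that of Rpl10. Of its 50-base windows, 7.60% occur in another annotated gene, the predicted gene Gm14460, and 0 in Rpl10, so exact sharing of reads between Rpl10l and Rpl10 is limited at that length. Rpl10 was at 654 RPKM in T136A and 703 RPKM in WT; its log2 ratio of -0.10 turned to 0.05 with upper-quartile scaling. The share of Rpl10l in the pair was 8.87% in T136A and 3.99% in WT.

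The transcription and chromatin members did not join the higher ones. Taf7l replaces TAF7 in the TFIID complex of germ cells (ENSMUSG00000009596; chromosome X, 134460118 to 134476490, minus strand). It was at 1.09 RPKM in T136A (45 reads) and 1.76 RPKM in WT (69 reads), 1.61-fold lower (1.09 to 2.40) and the one member below its WT level. Taf7 was at 50.5 RPKM in T136A and 31.4 RPKM in WT, a fold of 1.61 (1.52 to 1.71), so the copy and its counterpart differed in opposite directions. Taf7l made up 2.11% of the pair in T136A and 5.30% in WT.

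Brdt, the testis member of the BET proteins that read acetylated histones, was at 0.914 RPKM in T136A (86 reads) and 0.826 RPKM in WT (74 reads) (ENSMUSG00000029279; chromosome 5, 107331159 to 107387058, plus strand). The interval of its fold of 1.11 ran from 0.801 to 1.53 and included 1, so no difference was detectable at this depth. The common BET genes examined were close between the libraries as well. Brd2 was at 39.6 RPKM in T136A and 43.2 RPKM in WT, with a log2 ratio of -0.12 that turned to 0.03 with upper-quartile scaling. Brd3 was at 11.4 RPKM in T136A and 11.1 RPKM in WT.

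**Figure D3:**
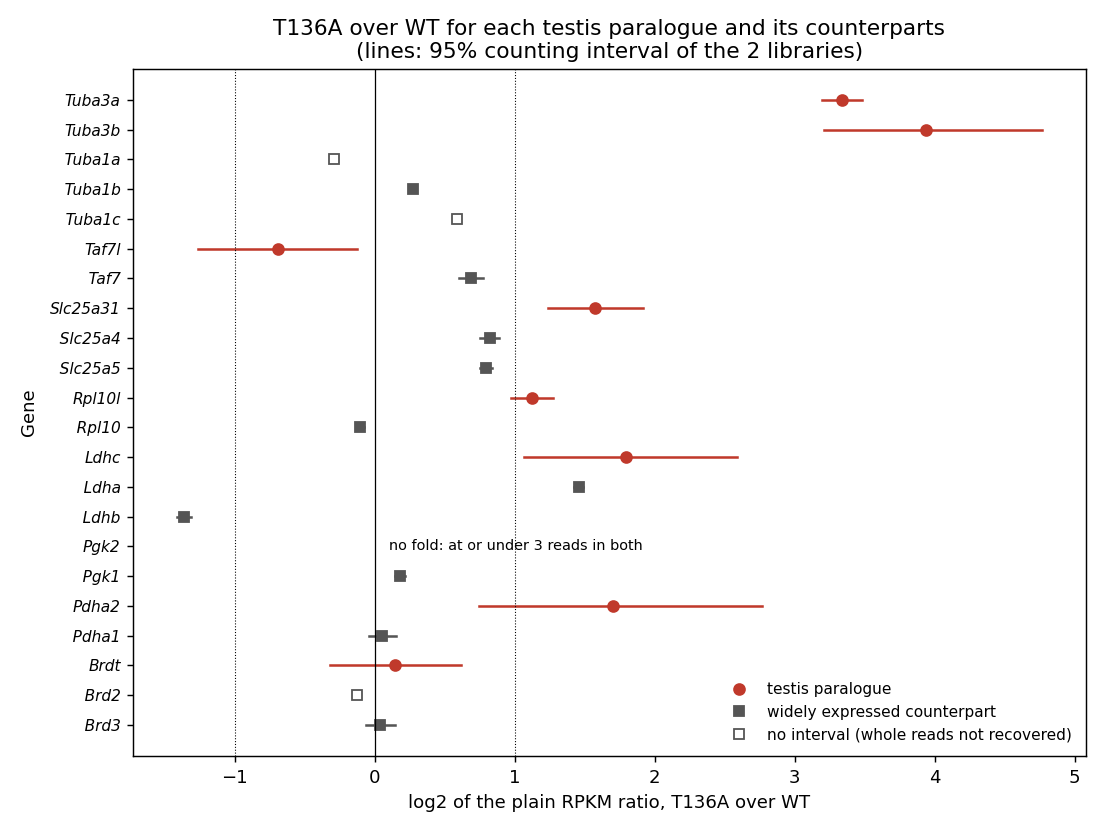
Log2 of the plain RPKM ratio of T136A over WT for each testis paralogue (circles) and its widely expressed counterparts (squares), with the 95% counting interval where whole reads were recovered (filled symbols) and dotted lines at a 2-fold difference. Tuba3a and Tuba3b lie furthest to the right, Ldha and Ldhb on opposite sides of 0, and Taf7l left of 0 with Taf7 right of it.

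Of the 13 counterparts described, 1 (Ldha) was higher, 1 (Ldhb) lower and 11 between the limits, beside 3.13% higher and 3.1% lower over all genes. Their median log2 ratio was 0.18, against -0.03 over all 12320 genes. Each of these counterparts stood at 11.1 RPKM or more in both libraries. In each library every member stood below all of its counterparts, except Tuba3a in T136A. Outside alpha-tubulin, the shares of the members in T136A ran from 0.0106% for Pgk2 to 8.87% for Rpl10l.

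A list of 36 other testis copies of common proteins was set beside the members, and 28 of them were found. Of these, 16 reached 1 RPKM, 4 were higher in T136A (Cyct, Cox7b2, Cox8c and Rpl39l) and 0 lower, beside the 3.13% and 3.1% of all genes. The median log2 ratio over the 28 was 0.06. Like the members, the list was written with earlier results of these libraries known.

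Of the 4 copies on the list that serve the respiratory chain, 3 were higher and 1, Cox6b2, lay between the limits, beside 3.13% of all genes higher. This grouping was not planned in advance. In a like grouping of 6 copies of glycolysis and pyruvate enzymes, members included, 2 reached 1 RPKM and 1 (Ldhc) was higher. The median log2 ratio of those 6 was 0.20. Cyct, the testis cytochrome c that carries electrons between complexes III and IV, was at 29.2 RPKM in T136A (352 reads) and 5.93 RPKM in WT (68 reads), a fold of 4.93 (3.79 to 6.48). The common cytochrome c, Cycs, was at 68.9 RPKM in T136A and 58.6 RPKM in WT, so Cyct made up 29.8% of the pair in T136A and 9.19% in WT. Cox7b2, a testis subunit of cytochrome c oxidase, was at 5.82 RPKM in T136A (58 reads) and 0.527 RPKM in WT (5 reads), a fold of 11.04 with a wide interval of 4.47 to 35.3. Cox8c, another such subunit, was at 2.49 RPKM in T136A (21 reads) and 0.499 RPKM in WT (4 reads), a fold of 4.996 (1.69 to 20.0). Cox7b2 and Cox8c passed the minimum through T136A alone. Cox6b2, the testis form of a further subunit, was at 19.6 RPKM in T136A and 10.8 RPKM in WT, within the 2-fold limits. The common subunits differed less: Cox7b was at 140.7 RPKM in T136A and 124 RPKM in WT, Cox8a at 529 RPKM in T136A and 699 RPKM in WT, and Cox6b1 at 223 RPKM in T136A and 174 RPKM in WT.

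Rpl39l, the testis copy of a small protein that lines the ribosome's exit tunnel, was at 47.6 RPKM in T136A (728 reads) and 8.87 RPKM in WT (129 reads), a fold of 5.37 (4.45 to 6.53). Rpl39 was at 173 RPKM in T136A and 161 RPKM in WT. Rpl39l made up 21.6% of the pair in T136A and 5.21% in WT. With Rpl10l, both ribosomal copies examined here were higher in T136A, beside 3.13% of all genes. This grouping also was not planned in advance, and both genes were chosen with earlier results known. The folds of the common forms were 1.07 for Rpl39 and 0.931 for Rpl10.

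The 11 other copies that reached 1 RPKM, besides Cox6b2, lay between the 2-fold limits. Rbmxl2, a copy of an RNA-binding protein of splicing, was at 63.3 RPKM in T136A and 60.8 RPKM in WT. The germ cell chaperone Clgn was at 5.04 RPKM in T136A and 4.83 RPKM in WT. Psma8, a proteasome subunit of spermatocytes, was at 8.77 RPKM in T136A and 8.37 RPKM in WT. Ccna1, the germ cell cyclin A, was at 1.45 RPKM in T136A (49 reads) and 2.65 RPKM in WT (85 reads), 1.82-fold lower (1.27 to 2.65). The remaining 7 that reached 1 RPKM, Cstf2t, Tbpl1, Taf4b, Hspa2, Gtf2a1l, Eno4 and Calr3, ran from 1.22 to 13.2 RPKM in T136A and from 0.822 to 11.8 RPKM in WT, all within the 2-fold limits. Rbmxl2 and Tbpl1 stood above their common forms, Rbmx and Tbp, in both libraries. Rbmx was at only 1.795 RPKM in T136A and 1.781 RPKM in WT. Sharing of reads between Rbmxl2 and Rbmx was not tested. Cstf2t stood above Cstf2 in T136A but not in WT. Gapdhs, the sperm form of a glycolytic enzyme, stayed at 0.203 RPKM in T136A and 0.142 RPKM in WT, under 1 RPKM like Pgk2 and Pdha2.

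**Figure D4:**
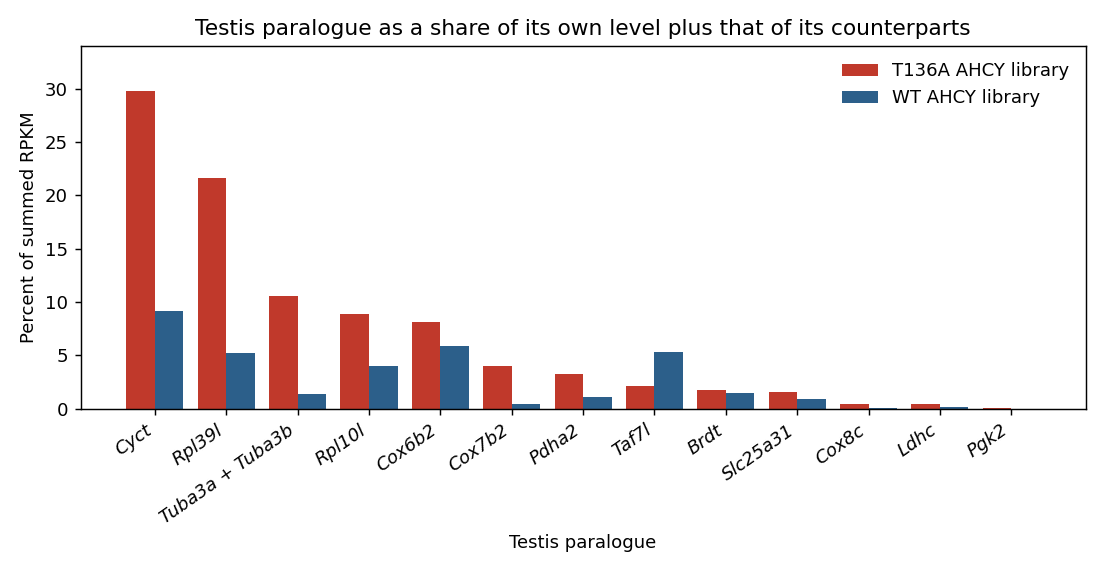
Level of each testis paralogue, or pair of paralogues, as a percent of its own RPKM plus that of its widely expressed counterparts, in the T136A library and the WT library, ordered by the T136A share. Among the families drawn, Cyct (29.8% in T136A, 9.19% in WT), Rpl39l (21.6% in T136A, 5.21% in WT) and the Tuba3a and Tuba3b pair (10.6% in T136A, 1.39% in WT) have the largest T136A shares. Taf7l (2.11% in T136A, 5.30% in WT) has the smaller bar in T136A.

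**Figure D5:**
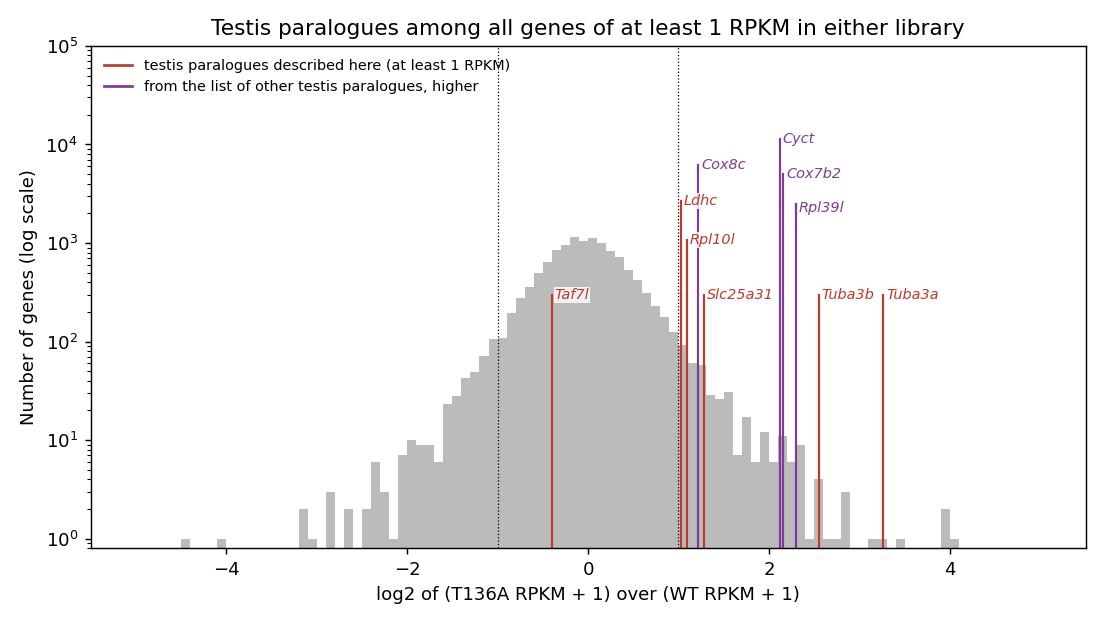
Number of genes (log axis) by log2 ratio on the RPKM + 1 scale, T136A over WT, for the 12320 genes of at least 1 RPKM in either library, with lines at the 6 members that reached 1 RPKM and at the 4 higher genes of the list of other testis copies (line heights carry no value). Taf7l (-0.40) lies inside the bulk, Ldhc (1.03) and Rpl10l (1.10) just past the 2-fold limit, and Tuba3a (3.26) far to the right.

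Genes of the repressors that hold germline promoters silent were measured in the same libraries. Of 22 on that list, 1 (4.55%) was higher, 0 were lower and 21 lay between the limits, with a median log2 ratio of 0.02. Over all genes 3.13% were higher and 3.1% lower, so the count of repressors was near that share. The higher one was the DNA methyltransferase Dnmt3b, at 8.45 RPKM in T136A and 3.48 RPKM in WT. E2f6, the DNA-binding subunit that reads E2F sites in germline promoters, was at 5.79 RPKM in T136A (603 reads) and 10.5 RPKM in WT (1040 reads), 1.81-fold lower (1.64 to 2.01). Rybp, a Polycomb partner, was at 27.8 RPKM in T136A and 43.6 RPKM in WT, 1.57-fold lower (1.49 to 1.65). Dnmt3a, another DNA methyltransferase, was at 4.42 RPKM in T136A and 2.76 RPKM in WT, a fold of 1.60 (1.47 to 1.75). Setdb1, which methylates histone H3 lysine residues, was at 16.3 RPKM in T136A and 10.5 RPKM in WT, a fold of 1.56 (1.46 to 1.68). The named partners of E2F6 differed less: Mga was at 4.44 RPKM in T136A and 4.92 RPKM in WT, and Max at 30.7 RPKM in T136A and 27.6 RPKM in WT. Pcgf6, a Polycomb RING finger gene, was at 25.4 RPKM in T136A and 21.6 RPKM in WT, and L3mbtl2 at 14.9 RPKM in T136A and 18.1 RPKM in WT. The part of these levels in the values of the testis copies was not tested.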

How the data were processed

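RNA was taken up in Trizol and made into libraries with an Illumina TruSeq RNA kit, per the labels' protocols, and sequenced on a GAIIx. The authors deposited 1 RPKM value per Ensembl gene and library, for 25749 identifiers. Neither the labels nor the file headers name the unit, and it was settled from the values: times the union exon length in GENCODE M21 and a constant per library, 90.0% (T136A) and 89.8% (WT) of the positive values were whole within 0.01, and these constants gave the totals and the recovered reads. CASAVA 1.8 and the mm9 build appear in the submitters' processing notes, without a role. For the aligner, the counting program and strand, the answer is not given in the sources used here. Coordinates and symbols come from GENCODE M21 (GRCm38), which matched 25696 identifiers; where 18 identifiers shared symbols, the higher was kept.

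The measure was log2 of (T136A RPKM + 1) over (WT RPKM + 1), which understates changes of low genes. Printed folds are plain RPKM ratios. Their 95% intervals are exact conditional binomial (Clopper-Pearson), from recovered reads available for 87.3% of the 12320 genes and 8 of the 9 members. Intervals and floors (3 reads) cover counting error only, since reads without molecular identifiers are not independent molecules, and compare libraries, not genotypes. Pseudogenes and overlapping genes could share reads. Coding identity came from global alignment of the longest coding transcript (Biopython 1.88). Steps were tested on simulated data (Python 3.11.15, SciPy 1.17.1). The members, their counterparts and every list were chosen with earlier results of these data known; genes were named by being members, counterparts, list genes of 1 RPKM or more, or listed repressors (those past the 2-fold limit, E2f6, Mga, Max, Pcgf6 and L3mbtl2), and Gapdhs, Rybp, Dnmt3a, Setdb1 and the marker genes were named after their values were seen. A further counterpart is not reported here. Alternatives changed the added constant, the minimum level and the scaling, summed the Tuba3 genes, required the interval to exclude 1, or used plain ratios.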

Additional observations from a re-analysis of the deposited data

How the results depend on the processing

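The same 5 members were higher with 0.1 RPKM added, with no minimum, and under median centring, upper-quartile scaling and quantile normalization. With 5 RPKM added 3 remained (Tuba3a, Tuba3b and Rpl10l), and the median log2 ratio of the members was 0.39, against 1.42 with 0.1 added and 0.81 with Tuba3a and Tuba3b summed. With a minimum of 5 RPKM Ldhc left the count. With Tuba3a and Tuba3b summed and counted as 1, the higher members were 4: the sum, Slc25a31, Rpl10l and Ldhc. With 5 added, 2 of the other testis copies were higher, Cyct and Rpl39l. Over all genes, 723 were higher and 727 lower with 0.1 added, 101 and 114 with 5 added, and 209 and 264 with a minimum of 5 RPKM. Upper-quartile scaling moved the median of all genes by 0.13. On plain ratios of recovered reads with at least 10 reads, an alternative chosen after seeing the data, 1370 genes (9.55%) were higher and 1267 (8.83%) lower, Pdha2 joined the 5 higher members, Nxf2 (8 reads in T136A, 2 in WT) joined the higher other copies, making 5, and 1 other copy, Papolb (16 reads in T136A, 32 in WT), was lower. No member or counterpart past the 2-fold limits changed direction; Rpl10 (0.05) and Brd2 (0.03), between the limits, did with upper-quartile scaling. The causes were not tested. No paired analysis was possible because each genotype had 1 library. Few reads limit Pgk2, Cox8c and Cox7b2.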

Other observations

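The marker lists held 4 genes past the 2-fold limits, beside 3.13% of all genes higher and 3.1% lower. The markers that reached 1 RPKM were 8 of embryonic stem cells, 4 of Sertoli and Leydig cells, 2 of feeder fibroblasts and 0 of spermatids. Dmrt1, a transcription factor of Sertoli and germ cells, was at 11.6 RPKM in T136A (552 reads) and 50.9 RPKM in WT (2313 reads). Insl3, a hormone of Leydig cells, was at 1.74 RPKM in T136A (20 reads) and 0.275 RPKM in WT (3 reads). Utf1, a chromatin protein of embryonic stem cells, was at 284 RPKM in T136A and 94.2 RPKM in WT. Fn1, fibronectin of the extracellular matrix, was at 32.9 RPKM in T136A and 93.4 RPKM in WT. Among the common forms of the other testis copies, the chaperone Hspa8 alone passed a limit, at 967 RPKM in T136A and 220 RPKM in WT, while its germ cell relative Hspa2 did not.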
